A study of Mus musculus with 31 samples.

Results

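The constitutive proteasome genes of the mouse were described in colon scrapings under 2 diets and 4 rectal infusions. Members were all genes whose symbol begins with Psma, Psmb, Psmc, Psmd, Psme, Psmf or Psmg and a number, apart from the immunoproteasome genes Psmb8, Psmb9 and Psmb10. The probe set with the highest mean stood for each gene. The choice used symbols and mean levels, but it was made with earlier results of these data known. This gave 46 of the 18820 genes with a probe set of their own, and 44 of them were among the 12795 genes bright enough to test. The test needed an intensity of 20 or more on 3 or more arrays. The remaining pair were Psma8, the alpha subunit of germ cells, and Psmb11, the catalytic subunit of the thymus. Their log2 levels were 3.20 to 3.51 and 2.97 to 3.36 over the 31 arrays. Psma4 is missing because its probe set carries a further symbol, and a second probe set shared by Psme2 and its near-identical copy Psme2b was left out for the same reason. The values of Psme2 are therefore uncertain, since its own probe set may also read Psme2b. Psmc3ip, a factor of meiotic recombination, and Psme3ip1, a binding partner of Psme3, have matching symbols but are no subunits.

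The animals were male C57Bl/6J mice of 13 weeks, with no genetic change named. Their food held 10% of its energy as fat, with palm oil in place of lard, in the low-fat diet (LFD) or 45% in the high-fat diet (HFD), and was given for 2 weeks before infusions began. Each day for 6 days, sedated mice received 80 µL of saline or of 100 mM sodium acetate, propionate or butyrate by the rectum, and the colon was taken 4 h after the last dose. Every diet-by-infusion group holds 4 arrays, except acetate on LFD with 3, which makes 15 LFD and 16 HFD arrays. Arrays are named here by infusion, diet and the replicate number of the labels. The protocol names 6 mice per group, and nothing in the labels says that each array is a separate mouse, so p-values measure only the spread between arrays.

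The proteasome is the main protease of the cytosol and nucleus and degrades proteins tagged with ubiquitin. Its core particle is a barrel of outer rings of alpha subunits (Psma) and inner rings of beta subunits (Psmb), of which Psmb5 cuts after hydrophobic residues, Psmb6 after acidic ones and Psmb7 after basic ones. The regulatory particle on its end unfolds substrates with a ring of ATPases (Psmc) and binds and deubiquitinates them with non-ATPase subunits (Psmd). Alternative caps (Psme) open the core without ATP, Psmf1 inhibits it, and Psmg1 to Psmg4 help assemble the alpha ring. The genes are known to be transcribed together, with Nfe2l1 as the factor that raises them when proteasome activity drops. In the quickly renewing gut epithelium, as elsewhere, it clears cell-cycle regulators and signalling proteins.

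The bases before the start of 4 members whose diet difference under propionate is described further on are shown, to let their promoters be set side by side. They come from RefSeq on GRCm38.p6, run 5′ to 3′ on the strand of the gene and end at the base before the start. Psma2 lies at chr13:14613112-14613241 on the plus strand, Psmb5 at chr14:54617996-54618125 on the minus strand, Psmd1 at chr1:86064489-86064618 on the plus strand and Psme3 at chr11:101316083-101316212 on the plus strand. Capitals mark the core of the antioxidant response element, TGACNNNGC, bound by factors of the Nfe2l family, and the NF-Y box, CCAAT, each on either strand:
Psma2: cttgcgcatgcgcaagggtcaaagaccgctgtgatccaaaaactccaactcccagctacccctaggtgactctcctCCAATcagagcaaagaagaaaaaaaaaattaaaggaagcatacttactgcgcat
Psmb5: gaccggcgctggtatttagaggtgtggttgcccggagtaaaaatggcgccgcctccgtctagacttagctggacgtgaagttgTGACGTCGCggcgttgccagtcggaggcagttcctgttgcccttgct
Psmd1: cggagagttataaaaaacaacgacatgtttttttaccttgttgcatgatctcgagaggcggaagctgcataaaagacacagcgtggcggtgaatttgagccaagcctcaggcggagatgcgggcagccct
Psme3: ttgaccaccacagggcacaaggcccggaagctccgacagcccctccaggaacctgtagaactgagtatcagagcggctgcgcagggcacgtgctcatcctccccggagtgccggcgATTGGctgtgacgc

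Psmb5 carried the antioxidant core 47 bases before the start, Psma2 the NF-Y box at 54 bases, and Psme3 the NF-Y box on the other strand at 14 bases. The stretch of Psmd1 held neither. In none of these 4 do the motifs overlap. RefSeq entries were at hand for 37 of the 44 tested members, with 41 promoters in all. Within 250 bases before the start, the antioxidant core was in 5 of the 41 (12.2%), against 10.2% of the 32851 promoters of the table. The NF-Y box was in 14 of the 41 (34.1%), against 33.8%. Members thus held both motifs about as often as promoters at large.

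Values are log2 levels from RMA, so a difference of 1 is a doubling, and levels are compared within a gene only. Colon epithelial markers varied little between scrapings: the mean log2 level of 12 lay between 11.26 and 11.50 on all 31 arrays. Some arrays stood apart. The mean of 15 genes of small-intestinal lipid absorption was 7.90 to 8.25 on saline LFD 2, saline LFD 3, propionate LFD 2 and saline HFD 2, and 6.33 to 6.91 on the other 27. The mean of 8 smooth muscle genes was 7.10 on saline HFD 1 and 6.80 on saline HFD 2, and 4.85 to 6.17 elsewhere. Calls lost without these arrays are given beside the genes concerned.

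On the high-fat diet, averaged over the 4 infusions, nearly all proteasome genes had slightly lower levels than on the low-fat diet, but no single gene passed the test. The HFD minus LFD difference was below 0 for 41 of 44 members, with a median of −0.10 on the log2 scale, whereas 47.6% of all genes tested were below 0, with a median of 0.0051. None of the 44 passed a Benjamini-Hochberg adjusted p of 0.05 in limma over all genes, where 2.7% of all genes passed, 1.16% as lower and 1.53% as higher. At an unadjusted p of 0.05 there were 27 members (61.4%), all lower, against 10.8% of all genes lower. The means of some cell type lists differed between the diets too, with ranges that overlapped. The mean of 12 colon epithelial genes was 11.41 ± 0.0574 (SD) on LFD and 11.36 ± 0.0571 on HFD, that of 15 small-intestinal lipid genes 6.91 ± 0.613 and 6.58 ± 0.382, that of 5 macrophage genes 5.45 ± 0.119 and 5.60 ± 0.237, and that of 5 endothelial genes 4.52 ± 0.0836 and 4.62 ± 0.146. For 3 adipocyte genes the LFD and HFD means were 4.65 ± 0.655 and 4.36 ± 0.376. For 7 T and B cell genes they were 5.25 ± 0.382 and 5.42 ± 0.448, and for 8 smooth muscle genes 5.56 ± 0.318 and 5.71 ± 0.528. The part of these lists in the diet difference was not tested. In scrapings, fewer cells of a type and less RNA per cell cannot be told apart.

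Every structural role leaned the same way. All 6 tested alpha subunits lay below 0 (median −0.10), as did all 7 beta subunits (−0.10) and all 6 ATPases (−0.13). So did 13 of 14 Psmd genes (−0.13), 3 of 4 activators (−0.084) and 4 of 4 Psmg chaperones (−0.074). Roles follow the symbol throughout, so chaperones of base assembly, such as Psmd9, count among the Psmd genes. The largest difference was that of Psmd14, the deubiquitinase that strips ubiquitin chains from substrates. Its lowest, median and highest log2 levels were 8.49, 8.96 and 9.25 on LFD and 8.07, 8.74 and 9.13 on HFD. The diets overlapped widely, with 12 of 16 HFD arrays under the LFD mean of their own infusion, the basis of all such counts out of 16 here, and the difference was −0.23 ± 0.0778 (SE; limma adjusted p = 0.0881).

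The smallest adjusted p belonged to Psmd11, a scaffold subunit of the lid of the regulatory particle. Its levels ran from 8.52 through a median of 8.71 to 8.81 on LFD, and from 8.39 through 8.53 to 8.73 on HFD. Here 13 of 16 HFD arrays lay under the LFD mean of their own infusion, and the difference was −0.12 ± 0.0379 (limma adjusted p = 0.0638). Psmd3, another scaffold of the lid, ran from 8.27 through 8.36 to 8.51 on LFD and from 7.95 through 8.23 to 8.52 on HFD, a difference of −0.15 ± 0.0471 (limma adjusted p = 0.0657). Psmc4, an ATPase, ran from 8.63 through 8.90 to 9.13 on LFD and from 8.48 through 8.70 to 9.11 on HFD, a difference of −0.16 ± 0.0517 (limma adjusted p = 0.0739). These genes were slightly lower on HFD with ranges that overlapped. Of the catalytic subunits, Psmb7 differed by −0.14 ± 0.0596 (14 of 16 HFD arrays lower), Psmb6 by −0.10 ± 0.0464 (12 of 16) and Psmb5 by −0.093 ± 0.057 (9 of 16). Psmd8, a lid subunit, differed by −0.072 ± 0.027 and was lower on 15 of 16 HFD arrays. The exceptions were Psmd9, a chaperone of base assembly, at 0.049 ± 0.045, Psme1, a subunit of the interferon-inducible cap, at 0.011 ± 0.036, and the non-subunit Psme3ip1 at 0.019.

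The mean over all 44 members, with each gene set to 0 at its own mean over 31 arrays, was 0.051 ± 0.0758 (SD, n = 15) on LFD and −0.048 ± 0.0940 (SD, n = 16) on HFD. The diets overlapped in this mean. Among LFD arrays the lowest was saline LFD 3 at −0.087, and among HFD arrays the highest were butyrate HFD 2 at 0.135 and saline HFD 4 at 0.094. The lowest arrays of all were propionate HFD 3 at −0.223 and propionate HFD 4 at −0.190. How many members passed depended on single arrays: 7 without saline LFD 3, 5 without acetate LFD 1 or propionate HFD 1, 4 without saline HFD 4 and 3 without butyrate HFD 2. The count was 1 without butyrate LFD 4, saline HFD 2 or butyrate HFD 1, 2 without the 4 arrays high in small-intestinal genes, and 17 with array weights, all lower.

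**Figure D1:**
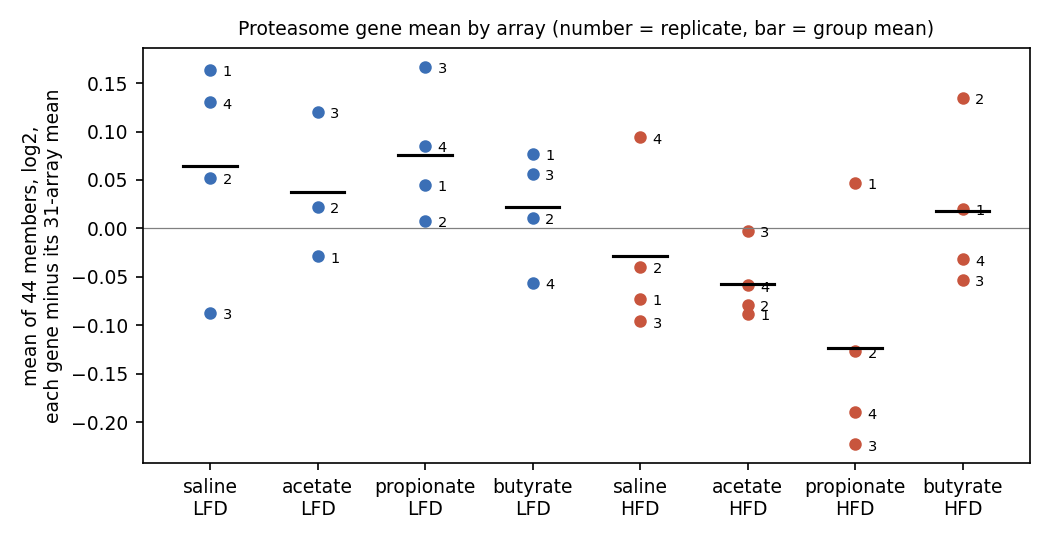
Mean log2 level of the 44 tested proteasome genes on each array, each gene set to 0 at its mean over 31 arrays; points are arrays with their replicate number, bars are group means, LFD in blue and HFD in red. The propionate HFD group has the lowest mean, −0.123, with 3 of its 4 arrays between −0.223 and −0.127 and the first at 0.047.

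Split by infusion, proteasome genes passed the test in the propionate groups, where 11 fell on HFD. The members' median HFD minus LFD difference was −0.10 under saline (42 of 44 below 0), −0.091 under acetate (35 of 44), −0.17 under propionate (36 of 44) and −0.015 under butyrate (25 of 44). The acetate median was −0.031 without acetate LFD 3, that under saline ran from −0.14 without saline HFD 4 to −0.067 without saline LFD 1, and that under butyrate from −0.056 without butyrate HFD 2 to 0.024 without butyrate HFD 3. Under saline, acetate and butyrate no member passed, as was true of all genes (0% in each). At an unadjusted p of 0.05 there were 2 members under saline (4.55%, all genes 7.28%), 6 under acetate (13.6%, all genes 7.71%) and 0 under butyrate (all genes 3.67%), none of them higher. Under propionate 11 of 44 members passed (25%), all lower on HFD, whereas 6.87% of all genes passed, 4.82% as lower and 2.05% as higher. Whether the diet difference itself differed from that under saline was tested for each acid, and no member passed (under propionate the smallest limma adjusted p was 0.20, for Psmd1).

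The 11 came from both particles. They were the alpha subunit Psma2, the beta subunits Psmb2, Psmb4 and Psmb5, the ATPases Psmc4 and Psmc6, the non-ATPase subunits Psmd1, Psmd2, Psmd6 and Psmd14, and the activator Psme3. None of the 4 Psmg chaperones passed, and 3 of the 4 lay above 0. Psmf1, the inhibitor, differed by −0.21 without passing. The medians by role were −0.22 for the alpha ring, −0.27 for the beta ring and −0.19 for the ATPases. They were −0.22 for the Psmd genes, −0.17 for the activators and 0.053 for the Psmg chaperones.

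Psmd14 had the largest difference. Its log2 levels were 8.95, 8.84, 9.25 and 9.22 on the propionate LFD arrays and 8.90, 8.30, 8.07 and 8.43 on the propionate HFD arrays. Propionate HFD 1 lay within the LFD range and the other HFD arrays below it. The gene fell by 35.9% (−0.64 ± 0.153, limma adjusted p = 0.0187). Psme3, the nuclear cap of the core particle, which promotes degradation without ubiquitin, had levels of 9.40, 9.38, 9.61 and 9.52 on LFD and 8.996, 8.76, 8.73 and 9.05 on HFD. All HFD arrays were below all LFD arrays, and it fell by 33.8% (−0.60 ± 0.132, limma adjusted p = 0.0156).

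Psmd1 and Psmd2, the largest subunits and the scaffold that docks ubiquitin receptors, both fell. The levels of Psmd1 were 9.71, 9.56, 9.73 and 9.64 on LFD and 9.45, 9.22, 9.08 and 9.06 on HFD, with no overlap (−0.45 ± 0.0959, limma adjusted p = 0.0147). The levels of Psmd2 were 10.33, 10.21, 10.43 and 10.39 on LFD and 10.02, 9.84, 9.81 and 9.98 on HFD, again with no overlap (−0.43 ± 0.0990, limma adjusted p = 0.0162). A second probe set of Psmd2 gave −0.50. Psmc4 was the most even of the 11: 8.92, 8.90, 9.08 and 9.02 on LFD and 8.59, 8.48, 8.52 and 8.52 on HFD. Its groups were apart on all 8 arrays (−0.45 ± 0.101, limma adjusted p = 0.0156). Psmd6, a lid subunit, had 8.49, 8.48, 8.83 and 8.59 on LFD and 8.56, 8.00, 7.91 and 8.21 on HFD. Its propionate HFD 1 array lay among the LFD values (−0.43 ± 0.122, limma adjusted p = 0.0353).

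In the core particle, Psmb5, the chymotrypsin-like catalytic subunit that proteasome inhibitors target, had levels of 10.63, 10.51, 10.76 and 10.64 on LFD and 10.58, 10.25, 9.87 and 10.25 on HFD. Only propionate HFD 1 reached the LFD range, and the difference was −0.40 ± 0.112 (limma adjusted p = 0.0332). The other catalytic subunits did not pass: Psmb6 differed by −0.095 ± 0.0909 and Psmb7 by −0.12 ± 0.117. Psmb2 and Psmb4, structural beta subunits, differed by −0.41 ± 0.117 and −0.32 ± 0.0829 (limma adjusted p = 0.0354 and 0.0257). Psma2 had 8.12, 8.01, 8.33 and 8.12 on LFD and 8.17, 7.60, 7.39 and 7.70 on HFD, so that propionate HFD 1 was above the LFD mean and the others were below all LFD arrays (−0.43 ± 0.116, limma adjusted p = 0.0292). Psmc6, an ATPase, had 8.47, 8.44, 8.63 and 8.54 on LFD and 8.49, 8.05, 8.01 and 8.17 on HFD (−0.34 ± 0.102, limma adjusted p = 0.0421). Its limma adjusted p was 0.0582 without the filter on dim genes and 0.0510 with the 4 small-intestinal-high arrays dropped. Under quantile normalization it was 0.0561, and in a fit of only the propionate arrays 0.0851.

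**Figure D2:**
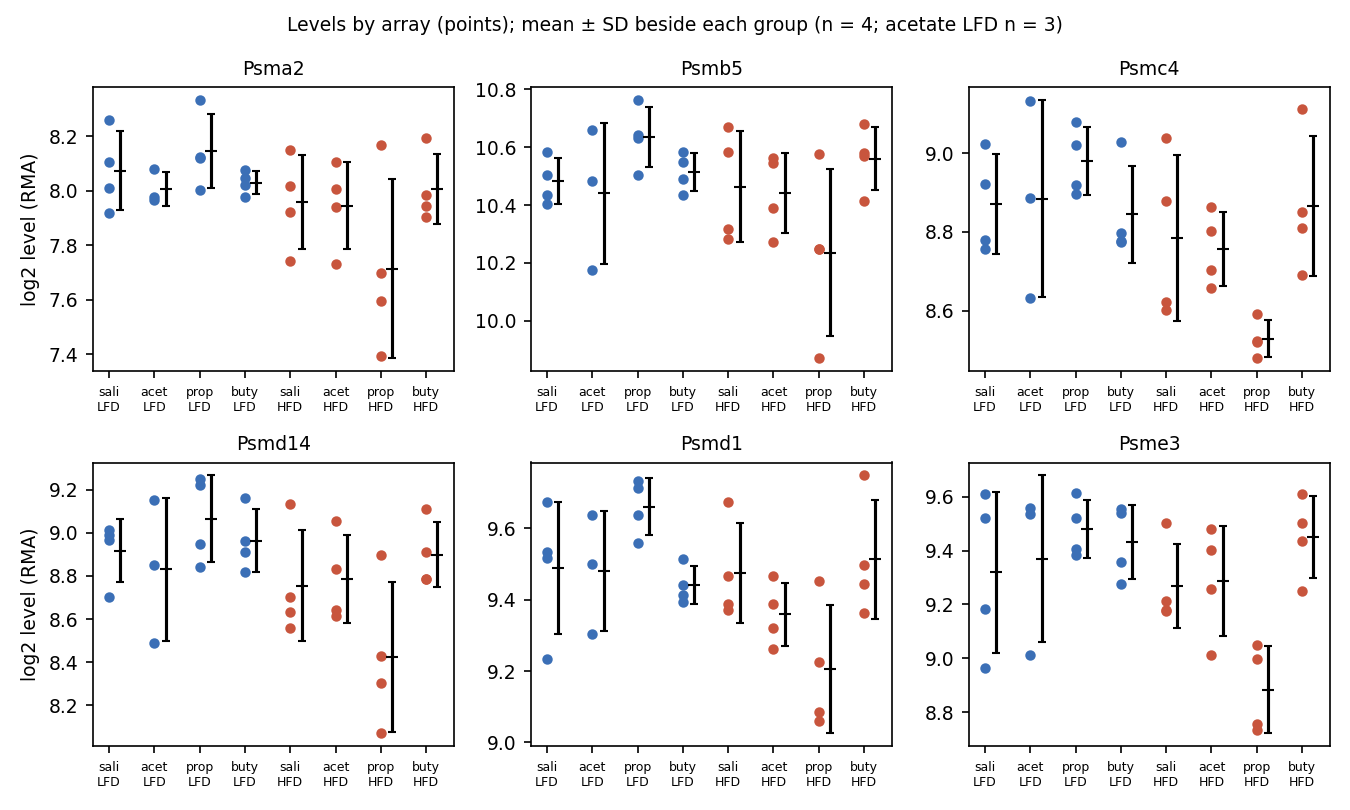
Log2 levels of 6 of the 11 genes on each array (points), with mean ± SD beside each group (n = 4, acetate LFD n = 3); on the axis sali, acet, prop and buty stand for saline, acetate, propionate and butyrate. The propionate HFD arrays of Psmc4 lie between 8.48 and 8.59, below every propionate LFD array, whereas those of Psma2 run from 7.39 to 8.17.

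Other members stood just outside the threshold, among them the ATPase Psmc2 (−0.31, limma adjusted p = 0.0525), the lid subunit Psmd12 (−0.32, 0.0545) and the beta subunit Psmb3 (−0.27, 0.0642). At an unadjusted p of 0.05 there were 24 lower members (54.5%) and 1 higher, against 15.9% of all genes lower and 8.5% higher. The higher one was Psmd4, a ubiquitin receptor, with propionate LFD levels of 8.17, 8.00, 8.19 and 8.13 and HFD levels of 8.23, 8.42, 8.35 and 8.10. These overlapped, at a difference of 0.15 ± 0.074 (limma adjusted p = 0.20). The further members above 0 were Psmg3, the chaperone partner of Psmg4 (0.18 ± 0.112), Psmg1, Psmg4, Psma7, Psmb1, Psmc5 and Psmd9, none over 0.062 apart from Psmg3. In all, the HFD arrays lay wholly below the LFD arrays for 9 of 44 members (20.5%), against 8.77% of all genes. These were Psmb3, Psmc2, Psmc4, Psmd1, Psmd2, Psmd3, Psmd8, Psme3 and Psme4. Under acetate, 8 of 44 (18.2%) lay wholly below, against 4.18% of all genes, and these were Psma3, Psmb7, Psmc5, Psmd3, Psmd4, Psmd7, Psmg1 and Psmg3. Under acetate the smallest unadjusted p was that of Psmg1, an assembly chaperone, with 7.22, 7.15 and 7.20 on LFD and 6.79, 7.03, 6.75 and 6.81 on HFD. Those groups did not overlap, and the difference was −0.35 ± 0.100 (limma adjusted p = 0.629).

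The 11 genes were chosen by their propionate values, so their values under the other infusions are a description. Their median diet difference was −0.43 under propionate, −0.085 under saline (11 of 11 below 0), −0.055 under acetate (9 of 11) and −0.014 under butyrate (6 of 11). The count of 11 rested on few arrays. It was 0 without propionate LFD 3, propionate HFD 2 or propionate HFD 3, and 2 without propionate LFD 4, while all genes called numbered 33, 11, 52 and 114 in place of 879. It was 7 without propionate LFD 1 and 22 without propionate HFD 1, and 22 with array weights, of which 21 were lower, with 464, 1731 and 2652 of all genes called in turn. When only the 8 propionate arrays were fitted, Psmc4, Psmd1, Psmd2, Psmd14 and Psme3 passed, 5 in all. The members' median stayed between −0.23 and −0.16 in every fit that left out 1 array. Without the 4 arrays high in small-intestinal genes 12 members passed, with 1 of the LFD arrays gone.

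Other gene lists were read in the propionate groups. Of those given here, only the small nucleolar RNA and small-intestinal lipid lists did not overlap. The mean log2 level of 52 small nucleolar RNA genes, short nuclear RNAs, was 6.75 to 7.06 on the propionate LFD arrays and 7.39 to 8.00 on the HFD arrays, and the groups did not overlap. The mean of the small-intestinal lipid list was 6.59 to 8.25 on LFD, where propionate LFD 2 was the highest, and 6.39 to 6.56 on HFD. These groups did not overlap either. The mean of 4 distal colon genes was 6.95 to 7.14 on LFD and 6.64 to 6.96 on HFD, and that of 8 smooth muscle genes 5.42 to 6.00 and 5.35 to 5.62. The colon epithelial mean was 11.27 to 11.43 and 11.26 to 11.37, and the mean of 5 goblet cell genes averaged 11.88 ± 0.0673 and 11.91 ± 0.0713 (SD, n = 4). The mean of 7 T and B cell genes was 4.95 to 5.89 and 5.11 to 5.97, and that of 5 endothelial genes 4.45 to 4.56 and 4.54 to 4.72. Their part in the result was not tested.

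**Figure D3:**
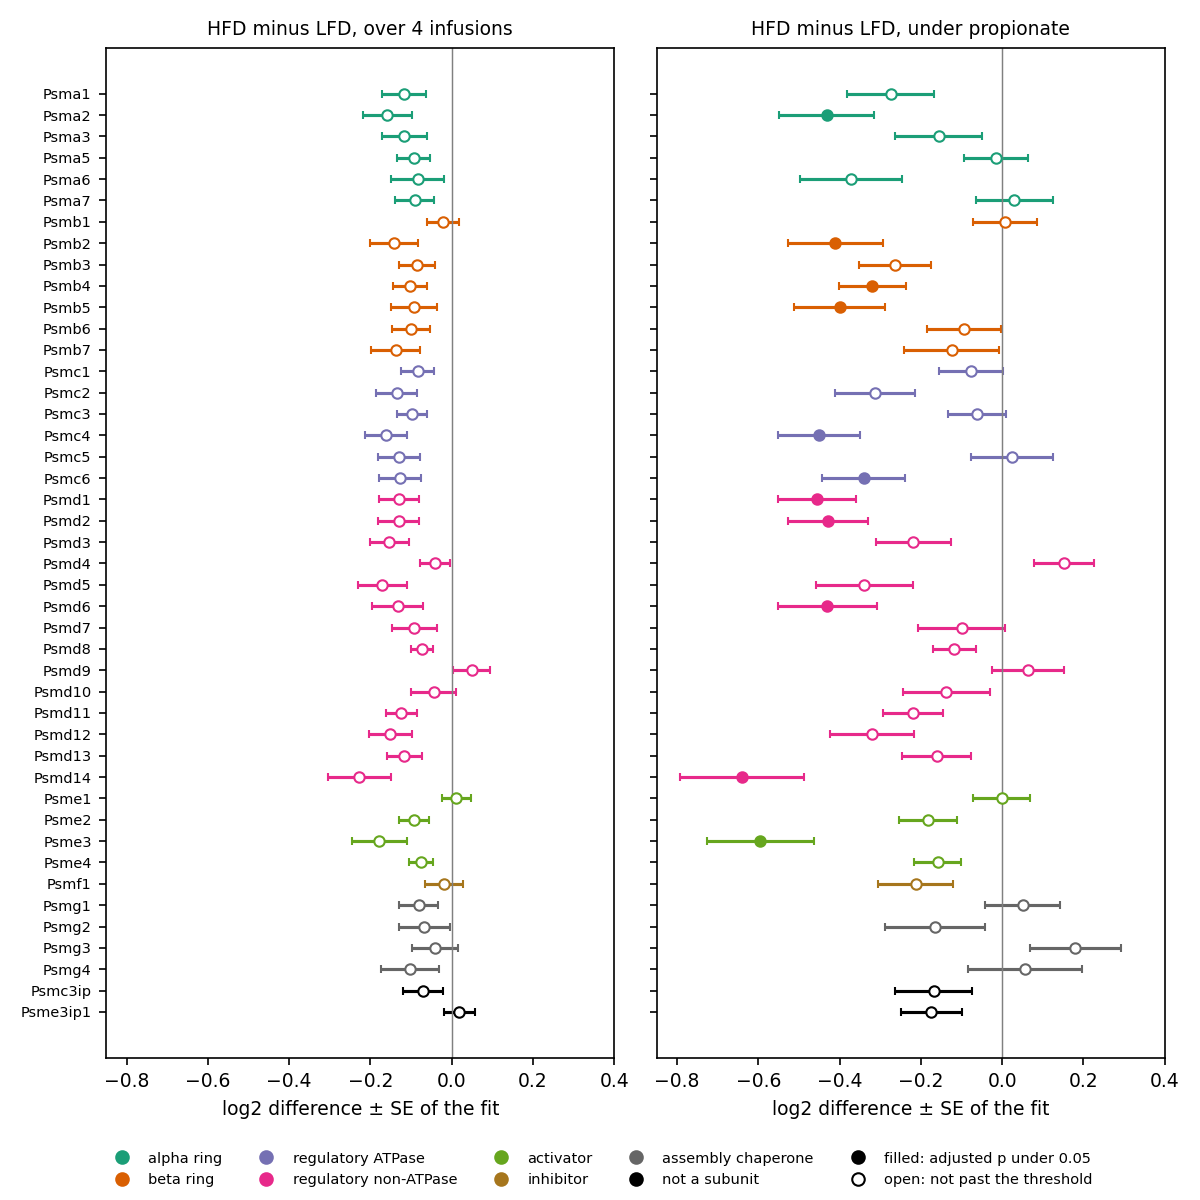
HFD minus LFD log2 difference ± SE of the fit for each of the 44 tested genes, over the 4 infusions (left) and under propionate (right), coloured by role; filled points have a limma adjusted p under 0.05. On the left 41 genes lie below 0 and none is filled, and on the right 11 are filled, from −0.64 for Psmd14 to −0.32 for Psmb4.

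**Figure D4:**
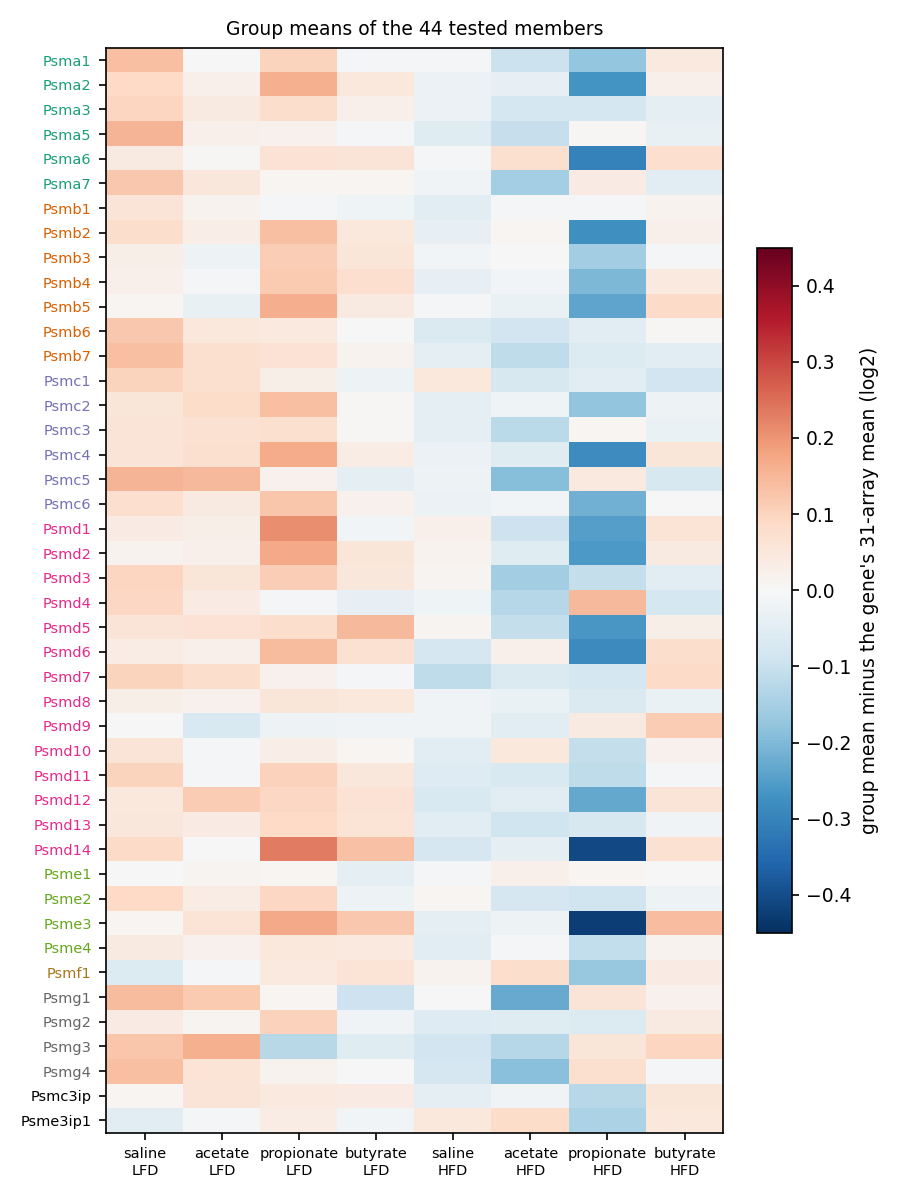
Group means of the 44 tested genes in the 8 groups, each as log2 difference from the gene's mean over 31 arrays; rows are genes with names coloured by role, blue is lower and red higher. The propionate HFD column is the lowest for Psmd14 and Psme3, whereas Psmd4 is higher there than in the other HFD groups.

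Against saline on the same diet, no acid moved a proteasome gene past the threshold, and no gene of the array passed either (0% in each of the 6 comparisons). The members' medians were −0.030 for acetate, 0.016 for propionate and −0.049 for butyrate on LFD, and −0.018, −0.089 and 0.043 on HFD. They shifted with single arrays: propionate on HFD gave −0.14 without propionate HFD 1 and −0.045 without saline HFD 4, and butyrate on HFD gave −0.00024 without butyrate HFD 2 and 0.10 without saline HFD 4. The other medians changed sign in at least 1 fit that left out an array. Propionate on HFD had the most members at an unadjusted p of 0.05: 10 of 44, of which 9 were lower (20.5%), against 7.89% of all genes lower. In the other 5 comparisons there were 0 to 2, where 1.51% to 4.01% of all genes reached that level. These comparisons share saline arrays, and propionate HFD shares its arrays with the diet comparison above.

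On HFD, Psme3 was at 9.21, 9.18, 9.18 and 9.50 under saline and 8.996, 8.76, 8.73 and 9.05 under propionate, with no overlap between the groups. The difference was −0.38 ± 0.132 (limma adjusted p = 0.295). Psmc4 was at 8.62, 8.88, 8.60 and 9.04 under saline and 8.59, 8.48, 8.52 and 8.52 under propionate, at a difference of −0.26 ± 0.101 (limma adjusted p = 0.338). These 2 were the members whose propionate HFD arrays lay wholly below saline (4.55%, against 2.96% of all genes). Psmd1 differed by −0.27 ± 0.0959 and Psmd2 by −0.27 ± 0.0990, both lower than the saline mean on 4 of 4 arrays. The alpha subunit Psma6 differed by −0.30 ± 0.126, and Psmd4 by 0.17 ± 0.074. Psmg3 was wholly above saline (4.77 to 4.89 against 4.62 to 4.73), as were 1.75% of all genes, at levels little above the filter of 4.32.

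On LFD the signs were mixed. Under propionate Psmd1 differed from saline by 0.17 ± 0.096 and Psmg3 by −0.25 ± 0.112, and under butyrate Psmg1 differed by −0.24 ± 0.092. Under acetate the member with the largest difference in size on LFD was Psma1, at −0.14 ± 0.115. On HFD, acetate gave −0.23 ± 0.092 for Psmg1 and butyrate 0.20 ± 0.108 for the lid subunit Psmd7. The difference between diets in the response to propionate was −0.44 ± 0.136 for Psmd1, −0.43 ± 0.140 for Psmd2 and −0.55 ± 0.186 for Psme3, with limma adjusted p-values of 0.20, 0.206 and 0.221. None passed for acetate, propionate or butyrate (0% of all genes in each), with 0, 11 (25%) and 1 (2.27%) members at an unadjusted p of 0.05, against 0.844%, 12.8% and 2.27% of all genes.

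The acids are sodium salts of straight-chain acids that lengthen by a carbon from acetate to propionate to butyrate, and all were given at 100 mM. In 6 pairwise comparisons, 3 on each diet, no member passed, with p-values adjusted over all genes in each. The share of all genes that passed was 0.0625% for butyrate against propionate on HFD and 0% for the other 5. Butyrate against propionate on HFD had a members' median of 0.13 (all genes 0.039) and 19 members at an unadjusted p of 0.05, of which 18 were higher under butyrate (40.9%, against 12.8% of all genes). For Psme3 the butyrate arrays were at 9.50, 9.61, 9.25 and 9.44, all above the propionate arrays. The difference was 0.56 ± 0.132 (limma adjusted p = 0.0661, 95% interval 0.29 to 0.83). Psmc4, at 8.81, 9.11, 8.69 and 8.85 under butyrate, was also wholly above propionate, by 0.34 ± 0.101 (limma adjusted p = 0.111, 95% interval 0.13 to 0.54). Psmd14 was higher under butyrate by 0.47 ± 0.153 and Psmd4 lower, at −0.23 ± 0.074, neither past the threshold. Psmc4, Psmd2 and Psme3 were the 3 members wholly above (6.82%, against 5.17% of all genes). These genes and Psmd14 had been picked out by the diet comparison on the same propionate HFD arrays, so their values here are a description. Without propionate HFD 1 the count passing was 10, and it was 1 without saline LFD 1, acetate LFD 1 or propionate HFD 4.

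Propionate against acetate on HFD had a median of −0.062 and 13 members at an unadjusted p of 0.05, 10 lower (22.7%, all genes 8.28%) and 3 higher (6.82%, all genes 4.89%). Psmd4 was higher under propionate by 0.27 ± 0.074 (limma adjusted p = 0.114) and Psme3 lower, at −0.40 ± 0.132. Without propionate HFD 4, 1 member passed there. Butyrate against acetate on HFD had a median of 0.070 and 1 member at that level (2.27%, all genes 3.64%), Psmg1 at 0.24 ± 0.092 (95% interval 0.056 to 0.43). On LFD the medians were 0.044 for propionate against acetate, −0.020 for butyrate against acetate and −0.050 for butyrate against propionate, each with 1 member at an unadjusted p of 0.05 (2.27%, all genes 3.7%, 1.4% and 3.62%). An adjusted p that misses the threshold does not show that the acids act alike.

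Genes around the proteasome were read from lists of 17 partners, 13 regulators of proteasome transcription and 21 ubiquitin genes that passed the filter. The partner list holds Sem1, a lid subunit whose symbol lies outside the rule for members. Over all infusions 1 ubiquitin gene and 1 regulator passed, both higher on HFD, and no partner passed. They were Ube2r2, a ubiquitin-conjugating enzyme, at 0.21 ± 0.0422 (limma adjusted p = 0.0176, above the LFD mean of the same infusion on 16 of 16 arrays), and Mafk, a small Maf partner of Nfe2l factors, at 0.15 ± 0.0380 (0.0336, 15 of 16). The call of Mafk was lost without the 4 arrays high in small-intestinal genes (limma adjusted p = 0.0525), without the 2 arrays high in smooth muscle genes (0.0643), with all probe sets (0.0530) and in 12 of 31 fits that left out 1 array, and that of Ube2r2 was lost in none of these. Under propionate 1 partner and 2 regulators were lower on HFD, and no ubiquitin gene passed. Zfand2a, a stress-inducible proteasome-binding protein, differed by −0.50 ± 0.142 (limma adjusted p = 0.0338), Stat3 by −0.22 ± 0.0598 (0.0326) and Nfyc, a subunit of NF-Y, by −0.24 ± 0.0717 (0.0409). Each lost its call in 7 of 31 fits that left out 1 array, and when the 4 small-intestinal-high arrays were dropped (limma adjusted p = 0.0592, 0.0975 and 0.0658). Stat3 also lost it under quantile normalization and in a fit of only the propionate arrays (up to 0.127), and Nfyc in these and without the filter (up to 0.0785). No gene of these lists passed in any other comparison made.

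Pomp, the chaperone that completes the core particle, differed by −0.15 ± 0.0572 over all infusions (14 of 16 HFD arrays lower, limma adjusted p = 0.119) and by −0.10 ± 0.112 under propionate. Nfe2l1, which raises proteasome genes, differed by 0.035 ± 0.0339 and −0.075 ± 0.0664, and its relative Nfe2l2 by −0.052 ± 0.0491 and −0.057 ± 0.0963. Neither passed in any comparison. The immunoproteasome subunits replace the catalytic subunits after interferon. Psmb8 differed by −0.036 over all infusions and 0.095 under propionate, Psmb9 by 0.037 and −0.048, and Psmb10 by −0.062 and −0.097, and none passed. Whether they differ from the constitutive genes in their diet difference was not tested.

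Within groups, most members varied together from array to array. Once each group's mean was taken away, the median Pearson correlation over the 946 pairs of members was 0.36 across 31 arrays, and 84.4% of pairs were above 0. Over all gene pairs the median was 0.0035. The arrays share normalization and whole-array shifts, so this is a description. Pairs of Psma and Psmb genes had a median of 0.46, pairs of Psmc and Psmd genes 0.42 and pairs across these sets 0.45. Closest to the mean of the other members were the ATPase Psmc2 (0.90), Psmd1 (0.86), the alpha subunits Psma1 (0.86) and Psma3 (0.85), and Psmd14 (0.82). Farthest were Psme1 (0.17), Psmd3 (0.11), Psmd4 (0.11), Psme3ip1 (0.11), Psmf1 (0.067) and Psmg3 (−0.043). Psme3, among the largest differences under propionate, stood at 0.47. In all, 18 of 44 were over 0.7 and 6 under 0.2. Of the other genes listed, Uchl5, a deubiquitinase of the regulatory particle, stood at 0.88, Txnl1, a thioredoxin bound to it, at 0.82 and Vcp, the segregase upstream of it, at 0.76. Pomp stood at 0.47, Nfe2l1 at −0.083, Nfe2l2 at −0.019 and Sqstm1, an autophagy receptor for ubiquitin, at −0.62. The genes of the partner list thus ran from 0.88 to −0.62, with the lid subunit Sem1 at −0.076, Ecpas at −0.13 and Bag6 at −0.54 among them. Psmb8, Psmb9 and Psmb10 stood at 0.060, −0.029 and 0.36.

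**Figure D5:**
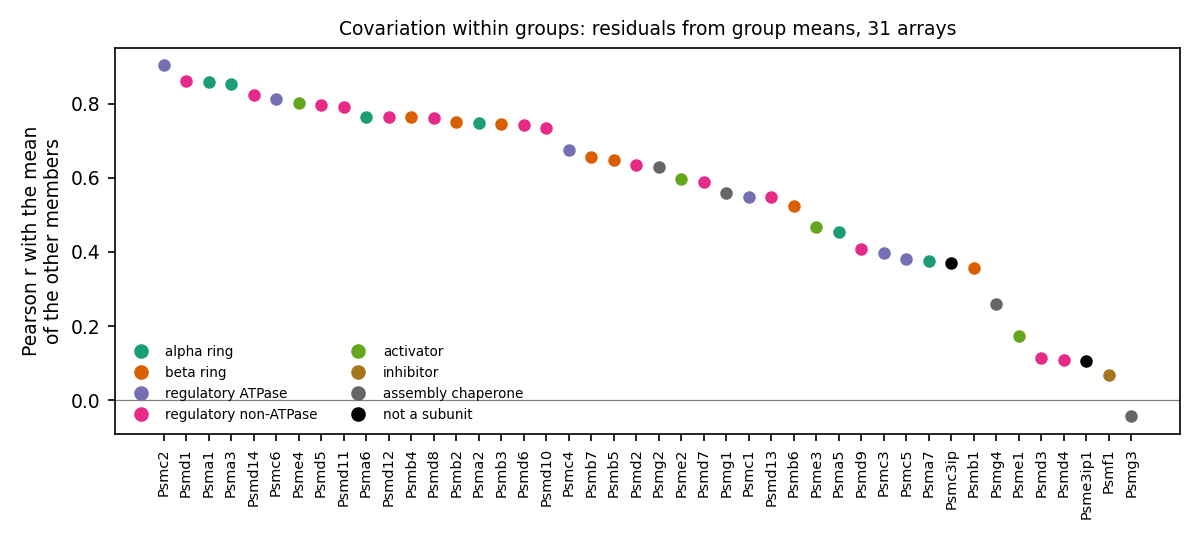
Pearson correlation of each of the 44 tested genes with the mean of the other members, over residuals from group means on 31 arrays, ordered from highest to lowest and coloured by role. Values run from 0.90 for Psmc2 to −0.043 for Psmg3, with a median of 0.63.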

How the data were processed

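RNA of 31 colon scrapings was hybridised to single-colour whole-transcript arrays. The values deposited by the authors are log2 intensities from RMA, which corrects the background, normalizes quantiles and summarises probes, per the submitters' processing notes. For the RMA version and the genome build: not given in the sources used here. Arrays have no read depth, and the number of arrays limits the precision. Of 35556 probe sets, 21218 carry 1 gene symbol in the platform annotation, 1881 several (named for none) and 12457 are not listed. The brightest probe set stood for a gene with several (1386 of 18820 genes). Array medians were 5.14 to 5.19.

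Groups came from the titles of the arrays. limma 3.58.1 (R 4.3.3; lmFit, eBayes with an intensity trend) fitted 1 mean per group on the 12795 genes with at least 3 arrays at an intensity of 20, with 23 residual and 4.82 prior degrees of freedom. Errors pool the spread over 8 groups. Calls needed an adjusted p (Benjamini-Hochberg, all genes of a comparison) under 0.05, in 20 comparisons. The fit was tested on simulated data. The members and lists were chosen with earlier results of these data known. Genes named are members past the threshold, those with the largest and smallest differences or the smallest p, the catalytic subunits, and listed genes past the threshold; gene pairs and further members named were picked after their values were seen. Motifs were sought on both strands of RefSeq promoters (GRCm38.p6). Alternatives were quantile normalization, all probe sets, another filter, array weights, only the groups compared, the replicate block, and arrays left out.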

Additional observations from a re-analysis of the deposited data

Results flagged for a closer look

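Gaps between the arrays of a group were checked for the 11 genes past the threshold under propionate and the mean of all members, in the 7 groups of 4 arrays. In 5 of 84 cases the highest or lowest array stood off from its nearest neighbour by more of the group's range than Dixon's 95% critical value allows, and chance gives about 1 in 20. Psmb4 on acetate HFD 3 was the highest of its group, at a log2 level of 10.31, with the next array at 10.18. Psmb4 on propionate HFD 1 was the highest of its group at 10.28, with the next at 9.96. Psmc4 on butyrate LFD 1 was the highest at 9.03, with the next at 8.80. Psmd14 on saline LFD 3 was the lowest at 8.70, with the next at 8.97. Psme3 on saline HFD 4 was the highest at 9.50, with the next at 9.21.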

How the results depend on the processing

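No gene past the threshold changed direction under any alternative run, and in the fits that left out 1 array the members' median diet difference stayed below 0 over all infusions and under saline, acetate and propionate, while under butyrate it ran from −0.056 to 0.024. The counts of members past the threshold moved more. With array weights 17 members were lower over all infusions (0 without weights), 22 passed under propionate (11), 13 in butyrate against propionate on HFD (0) and 12 in propionate against acetate on HFD (0), while all genes called numbered 1788, 2652, 937 and 1202 in place of 345, 879, 8 and 0. Fitting only the groups compared gave 5 under propionate, and the fit without saline LFD 2, saline LFD 3, propionate LFD 2 and saline HFD 2 gave 2 over all infusions. In butyrate against propionate on HFD the count was 1 with a mean log2 level of at least 6, 1 with all probe sets and 1 with the replicate block. Leaving out 1 array at a time gave 0 to 7 over all infusions, 0 to 22 under propionate, 0 to 10 in butyrate against propionate on HFD and 0 to 1 in propionate against acetate on HFD. The members' median of the difference between diets in the response to acetate went from −0.000084 to 0.097 without the same 4 arrays.

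Whether replicate numbers pair arrays is not settled. Residuals of arrays with the same number correlated at a mean of 0.0408 (105 pairs, from −0.497 to 0.472). Those with other numbers correlated at −0.0135 (315 pairs). Residuals sum to 0 within a group, which ties these means to each other, so they cannot decide it. With the replicate block 11 members passed under propionate, as without it. Signal near background limits the dim genes, such as Psmg3 and Psmc3ip.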
